A study of Mus musculus with 12 samples.

Results

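The contrast between heavy and light polysome RNA was followed through 6 mouse livers, each taken as 1 pair of libraries whatever the diet or genotype of the animal. The tables held 27179 gene IDs, of which 20970 were nuclear protein-coding genes, and the 7548 genes with at least 10 counts in 6 or more of the 12 libraries were compared. At that limit, 489 genes with a median of 11 counts reached it in exactly 6 libraries and were kept, and 538 genes with a median of 9.04 counts reached it in exactly 5 and were not. All 6 animals were male C57BL/6 mice, and the labels give no age. Animals keto 1 and keto 2 were wild type and had eaten a ketogenic diet, which replaces most carbohydrate with fat, for 24 h by the treatment protocol, while the time field of all 12 libraries reads 0 h. Animal S209A 1 was fed chow and carried the S209A change on both alleles of eIF4E, the cap-binding protein, which removes the serine phosphorylated by the MNK kinases. Animals chow 1, chow 2 and chow 3 were wild type on chow. The 24 h on diet is given for chow 1 and chow 2 too, but not for chow 3 or S209A 1. With 1 S209A animal and 2 on the ketogenic diet, no condition other than chow had more than a pair of livers. Gradient fractions were pooled into a heavy and a light sample per liver, and the labels do not say which fractions made which pool.

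An mRNA in use carries several ribosomes at once, and in a sucrose gradient a transcript sediments faster the more ribosomes it holds. Heavy over light therefore describes how a gene's mRNA is spread between well loaded and less loaded transcripts. A longer coding sequence has room for more ribosomes, and RNA in other large particles can enter the same fractions. In liver, mRNAs for ribosomal proteins and translation factors, and mRNAs for secreted proteins made on the endoplasmic reticulum, are classic cases of regulated or high ribosome loading.

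Nuclear protein-coding genes held between 356666 and 1777315 counts per library, out of library totals between 3341046 and 13263355. Levels are given as CPM, counts scaled to a common protein-coding total after TMM scaling, and heavy minus light is the difference in log2 CPM within a liver, computed with 2 counts added. Sums over marker lists were scaled to the protein-coding total alone, without the TMM factors, which ran from 0.784 (chow 2 heavy) to 1.297 (chow 1 light). Such sums are on another scale than the CPM of single genes, and their heavy and light values are not compared. In that scaling the 10 hepatocyte markers summed to between 54853 and 89616 CPM in heavy libraries and between 50954 and 82161 in light ones. None of the 14 lymphocyte or 10 neutrophil markers reached the count limit.

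Chow 1 and chow 2 stood apart from the other 4 livers, and they are also the 2 livers whose file headers name the aligner Bowtie2. For S209A 1 and chow 3 the header gives HISAT2, and for the ketogenic livers it gives a sequence file without an aligner, so header, diet and animal cannot be told apart. Pseudogene counts relative to the protein-coding total lay between 1.28% and 1.60% in the ketogenic libraries, between 0.316% and 0.341% in those with HISAT2 and between 1.70% and 2.76% in those with Bowtie2. How reads with several alignments were counted is not given, and its part in the results was not tested. Across the 1887 genes with the highest mean counts, heavy minus light of chow 1 and chow 2 correlated at a Spearman rho of 0.615. The same measure was -0.499 between S209A 1 and chow 1 and -0.44 between S209A 1 and chow 2. It was 0.372 between keto 2 and S209A 1, 0.346 between keto 1 and chow 3, and 0.126 between the 2 livers on the ketogenic diet. These are descriptions across genes that share each liver's libraries. Over all 7548 genes the share with the same sign was highest in chow 1 with chow 2, at 62.3%, and lowest in chow 1 with S209A 1, at 39.3%.

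**Figure D1:**
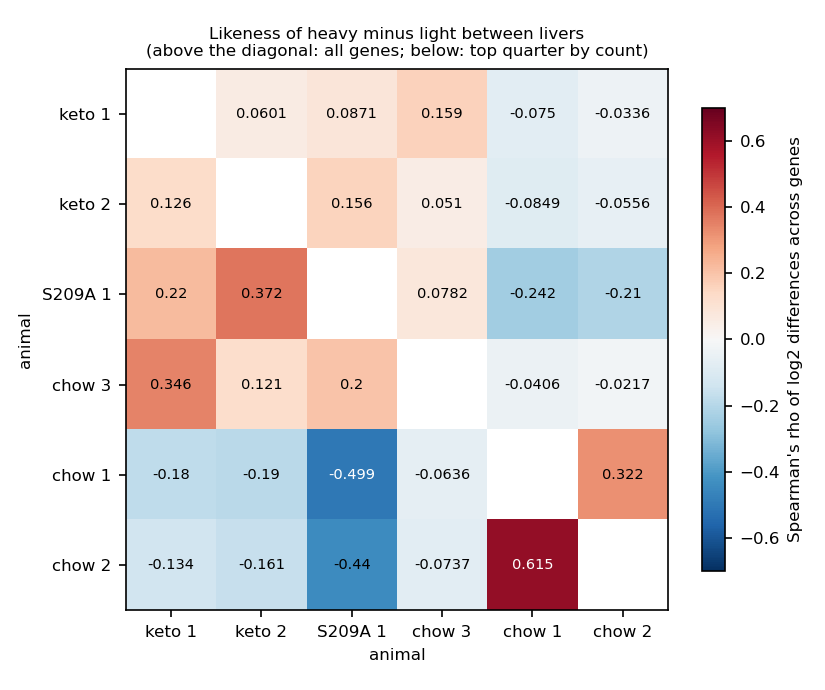
Spearman's rho of heavy minus light (log2 CPM) for every pair of livers across all 7548 genes (above the diagonal) and across the 1887 genes with the highest mean counts (below it). Chow 1 and chow 2 are most alike at 0.615, and both are negative against S209A 1, at -0.499 and -0.44.

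Few genes kept 1 direction through all 6 livers. Heavy exceeded light in every pair for 146 genes (1.93%), and light exceeded heavy in every pair for 111 genes (1.47%), together 257 genes (3.4%). With library totals alone as the scaling the balance turned, to 104 higher and 151 lower. Signs falling at random would agree in all 6 pairs at a share of 0.0313, by the 64 arrangements of 6 signs. The 3.4% lies close to that share, which takes the signs of the 6 livers as independent. They were not: chow 1 shared its sign with chow 2 in 62.3% of genes and with S209A 1 in 39.3%. The count by itself therefore neither shows a shared contrast nor excludes one. Signs split 5 to 1 in 1387 genes, 4 to 2 in 3453 and 3 to 3 in 2385 (31.6%), and 66 genes had a pair with no difference. Many of the shared signs were narrow: 113 of the 257 genes had a pair with a difference under 0.1, and 87 kept a difference over 0.2 in every pair. Just outside, 131 of the 1387 genes that split 5 to 1 had a lone opposing difference under 0.1. Depth changed the count little. The share with 1 sign was 3.13%, 2.97%, 3.34% and 4.19% from the lowest to the highest of 4 equal bins of mean count, and in the highest bin 59 genes were heavy in 6 and 20 were light in 6.

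The dissenting livers were not evenly spread. Among genes that split 5 to 1, S209A 1 was the lone liver for 294 and chow 1 for 280, while chow 3 was for 188. Among genes that split 4 to 2, chow 1 and chow 2 stood together against the other 4 in 625 genes (18.1%), the most of any pair of livers, and keto 2 with S209A 1 followed with 381. In 355 of those 625 genes heavy was higher in chow 1 and chow 2.

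The test over all 6 pairs called 0 of 7548 genes (0%), by edgeR's quasi-likelihood fit with the animal as a block. At an unadjusted p below 0.05 it gave 166 genes higher (2.2%) and 110 lower (1.46%) in heavy. DESeq2 called 12 genes and limma-voom 10 on the same counts. Leaving out chow 1 alone gave 7 calls. Without chow 1 and chow 2 together, a choice made after the correlations were seen, 56 genes passed (0.742%), 13 higher and 43 lower (0.57%) in heavy. In the 4 livers left 1384 genes kept 1 sign (18.3%), but random signs agree more often over 4 pairs than over 6. Within the Bowtie2 header 365 genes passed (4.84%), within the HISAT2 header 16 (0.212%) and within the header naming a read file 9 (0.119%). The 16 calls come from S209A 1 and chow 3, and the same pair gave 0 calls, with a lowest adjusted p of 1, in the fit that groups livers by title wording and treats the other 4 as 1 group.

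The genes described next were chosen for 1 sign in all 6 livers and the smallest unadjusted p, so their agreement is how they were found and not a result. None of these 20 genes passed the adjustment. Eppk1 encodes epiplakin, a large linker protein that binds keratin filaments. Its heavy pools held 202, 259 and 609.6 CPM (lowest, median and highest), against 50.4, 99.2 and 318 CPM in the light pools. Every liver had more in heavy, by 0.93 to 2.16 log2 units, although the ranges of the pools overlapped between livers. The fitted log2 difference was 1.53 ± 0.25 (SE), with an edgeR adjusted p of 0.0540, the lowest of all genes. Eppk1 passed under 8 of 21 alternatives, with an adjusted p between 5.08e-05 and 1.

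Bhmt, which remethylates homocysteine with betaine, was the most abundant of them. It had 2045, 6132 and 19180 CPM in heavy pools, against 715, 2477 and 11160 CPM in light pools. S209A 1 was high in both pools, and each liver had more in heavy, by 0.78 to 1.92. The fitted difference was 1.28 ± 0.29 (adjusted p = 0.283). Cyp2a5, a cytochrome P450 of the pericentral zone, had 279.7, 659.9 and 2119 CPM in heavy pools and 149, 205 and 856 CPM in light pools. Its fitted difference was 1.36 ± 0.28 (adjusted p = 0.246), and reads may be shared with its near copies.

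Thrsp, a nuclear regulator of fat synthesis, had 78.9, 102 and 258 CPM in heavy pools, against 0, 37.7 and 102 CPM in light pools. The keto 2 light pool held 0 counts and its heavy pool 60. Set against a floor of 3 counts per library, heavy was at least 10.8-fold higher there. The pair difference of 5.46 in keto 2 depends on the 2 counts added. The fit to the raw counts of all 6 livers gave 1.88 ± 0.41 (adjusted p = 0.283). Sult1a1, a phenol sulfotransferase, had 172, 480 and 920.4 CPM in heavy pools and 78.5, 217 and 461 CPM in light pools. Its pair differences lay between 0.56 and 1.31, a narrow range, and the fit gave 0.99 ± 0.24 (adjusted p = 0.404). H2-Q6, a non-classical MHC class I gene, had 53.4 to 104 CPM in heavy pools and 15.4 to 39.7 CPM in light pools. The pools of the other named genes with 1 sign overlapped. Overlap was not counted over all genes, so nothing is read from this. Its family has close copies.

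The remaining higher genes were Hmgcs1, given with cholesterol synthesis, and Tubb2a, a beta-tubulin. Inhbe, a hepatocyte-secreted member of the TGF-beta family, and Zfp36l1, which binds AU-rich elements and promotes mRNA decay, completed them. The fitted differences were 1.14 for Tubb2a, 1.22 for Inhbe and 0.98 for Zfp36l1. Zfp36l1 came closest to a split, with 0.15 in chow 3.

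Slco1a1, an organic anion transporter of the sinusoidal membrane, led the genes lower in heavy. It had 27.5, 54.6 and 142 CPM in heavy pools, against 111, 200 and 478 CPM in light pools. The differences ran from -3.51 in keto 1 and -3.12 in chow 3 to -0.42 in chow 1. The fit gave -1.82 ± 0.38 (adjusted p = 0.246), and Slco1a1 passed under 6 of 21 alternatives. Its neighbour Slco1a4 ran the other way at 1.38 ± 0.35 (adjusted p = 0.528), with 5 pairs higher and chow 1 lower, at -0.50.

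Cmah, which converts one sialic acid into another, had 63.3, 142 and 477 CPM in heavy pools and 104, 230 and 805 CPM in light pools. The pair differences were even, from -1.06 to -0.28, and the fit gave -0.73 ± 0.23 (adjusted p = 0.997). Uqcrb is a complex III subunit and Vnn1 a pantetheinase. Their fitted differences were -0.98 ± 0.35 and -0.94 ± 0.34, and in chow 1 Vnn1 rested on 0 heavy and 6 light counts. Uqcrb rested on 2 heavy and 7 light counts in chow 1 and on 5 and 13 in keto 1. In keto 2 Uqcrb had 16 heavy and 10 light counts, and only the scaling to library size put it lower in heavy, at 24.2 against 28.0 CPM. The others were Slc17a2 (-0.79), a phosphate and anion transporter, Becn1 (-0.83), an autophagy factor, Lifr (-0.59), a cytokine receptor, Sec61a1 (-0.71), the pore of the endoplasmic reticulum translocon, Mcm10 (-0.86), a replication factor, and Actr2 (-0.75), an actin nucleator. None of the 10 lower genes except Slco1a1 passed under any of the 21 alternatives, and Becn1 was at -0.01 in S209A 1.

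**Figure D2:**
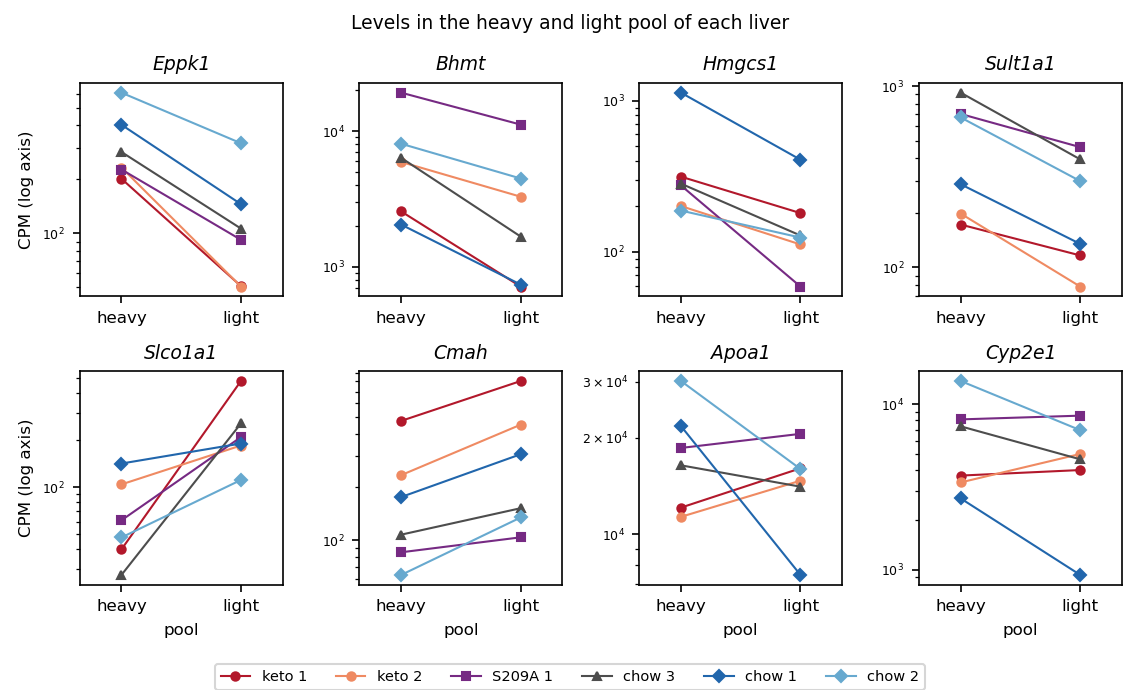
CPM (log axis) in the heavy and light pool of each of the 6 livers, joined by a line per liver, for 6 genes with 1 sign in all pairs and, at the lower right, 2 that split 3 to 3. The lines of Eppk1, Bhmt, Hmgcs1 and Sult1a1 all fall toward light, those of Slco1a1 and Cmah all rise, and those of Apoa1 and Cyp2e1 cross.

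**Figure D3:**
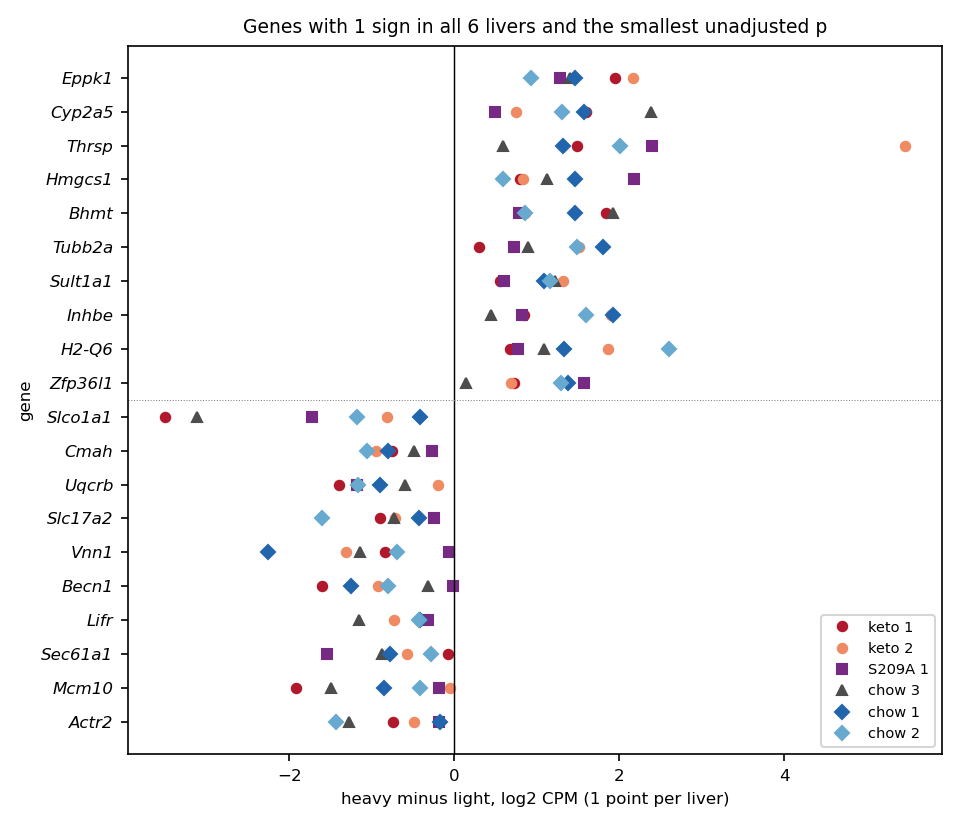
Heavy minus light in log2 CPM, 1 point per liver, for the 10 higher and 10 lower genes with 1 sign in all 6 livers and the smallest unadjusted p. Thrsp in keto 2 lies at 5.46 with 0 light counts, and points near 0 include Becn1 in S209A 1 at -0.01.

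The cholesterol synthesis genes leaned to the heavy pool more than any other list of 20 or more genes by their median. Of 25 listed genes all 25 were measured, 22 had a fitted value above 0 where 50.9% of all genes did, and the median was 0.84, against 0.01 over all genes. Heavy was higher in all 6 livers for 4 of them, where 1.93% of all genes were, and Sqle, Hmgcs1 and Hsd17b7 were among the 4. It was higher in 5 or 6 livers for 14, where 11.5% of all genes were, while 1 was lower in 5 or 6, where 10.4% were. At an unadjusted p below 0.05, 14 were higher and 0 lower, and none was called after adjustment. The list's medians were 0.10 and 0.96 in keto 1 and keto 2, 0.95 in S209A 1, and 1.11, 0.58 and 0.01 in chow 1, chow 2 and chow 3. In keto 1 and chow 3 the list therefore lay close to 0. Over the 4 livers other than chow 1 and chow 2, heavy was higher in all 4 for 7 of the 25 genes, where 9.08% of all genes were.

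Most of these genes are targets of the transcription factor SREBP-2, which works beside NF-Y, a factor that binds the CCAAT box. The RefSeq start table (build GRCm38.p6) held 1 start for 4789 of the 7548 genes and for 15 of the 25 in the list. CCAAT or its complement ATTGG, searched on both strands from 250 bases before to 50 after the start, lay in 14 of the 15 (93.3%) and in 39.6% of the 4789. A match is only a match of letters. Windows of 30 bases around the box nearest the start are shown for the 5 list members with the highest counts that have one upstream, since this short word is what the list shares in sequence, with the box in capitals.
Hmgcs1, chr13:119690294-119690323, plus strand: tccccgcctctcATTGGctgaaagcggatc
Insig1, chr5:28071184-28071213, plus strand: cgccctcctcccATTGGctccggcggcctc
Srebf2, chr15:82147122-82147151, plus strand: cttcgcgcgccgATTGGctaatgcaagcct
Sc5d, chr9:42264307-42264336, minus strand: cgccggctgctgATTGGccggctgcctgca
Cyp51, chr5:4104709-4104738, minus strand: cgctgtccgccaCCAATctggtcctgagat

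The 5 genes shown differed in how many livers had more in heavy. Hmgcs1, the cytosolic HMG-CoA synthase, had 188, 279 and 1129 CPM in heavy pools, against 59.1, 126 and 407 CPM in light pools, and more in heavy in every liver. Its fitted difference was 1.17 ± 0.26 (adjusted p = 0.283). Srebf2, the transcription factor itself, was higher in heavy in 4 livers, and Insig1, which holds SREBP in the endoplasmic reticulum, in 4. Cyp51, lanosterol demethylase, was higher in 4, at 0.64 ± 0.35. Sc5d, a late sterol desaturase, split 3 to 3. Of the other list members with the largest fitted values, Sqle, squalene epoxidase, had 45.4, 70.2 and 160 CPM in heavy pools and 0, 33.6 and 95.2 CPM in light pools, and the fit gave 1.69 ± 0.45 (adjusted p = 0.629). Its light pool in keto 2 held 0 counts against 30 in heavy, at least 5.40-fold more in heavy at the 3-count floor. Fdps, farnesyl diphosphate synthase, and Msmo1, a sterol methyl oxidase, were higher in 5 livers, at 1.47 ± 0.43 and 1.36 ± 0.38, and in chow 3 they lay at -0.02 and -0.19. In keto 2 Fdps had 8 heavy and 0 light counts, at least 1.44-fold more in heavy at the 3-count floor.

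The fat synthesis genes showed less agreement. Of 22 listed genes 20 were measured, 14 had a fitted value above 0, and Thrsp was the 1 gene higher in all 6 livers. Over all genes 50.9% were above 0 and 1.93% were higher in all 6. Fasn, fatty acid synthase, was higher in heavy in 5 livers at 0.76 ± 0.30 and was -0.51 in keto 1. Acly, which makes cytosolic acetyl-CoA, was higher in 5 at 0.54 ± 0.25. Elovl6, a fatty acid elongase, was lower in 5 at -0.94 ± 0.37 and was 0.72 in S209A 1. All 3 had an edgeR adjusted p of 0.997.

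Translation genes had small differences with a common lean. Of 85 listed cytosolic ribosomal protein genes 54 were measured, 48 had a fitted value above 0, and 1 was higher in all 6 livers. For this list and the next, the shares over all genes were 50.9% above 0 and 1.93% higher in all 6. The list's median was 0.31, with 0.36 and 0.02 in keto 1 and keto 2, -0.05 in S209A 1, and 0.53, 0.27 and 0.84 in chow 1, chow 2 and chow 3. Of 25 translation factors known for a 5′ terminal oligopyrimidine (TOP) motif, 23 were measured, 20 had a fitted value above 0, and 4 were higher in all 6 livers (Rack1, Eif3m, Tpt1 and Pabpc1). Their median was 0.28, and it lay above 0 in every liver, from 0.12 in S209A 1 to 0.73 in chow 1. None of the 77 measured genes was called. Mitochondrial ribosomal protein genes had a median of 0.03 over 59 genes.

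The TOP motif is a C at the cap followed by a run of pyrimidines, through which mTORC1 and LARP1 control loading. A start with C followed by at least 4 pyrimidines was found in 14 of the 48 translation genes with 1 annotated start and in 2.65% of all 4789 genes. Windows from 15 bases before to 15 after the annotated start are shown for the 6 such genes with the highest counts, with the pyrimidine run from the start in capitals, because this run is the element read by that pathway.
Fau, chr19:6057932-6057961, plus strand: tgcgcgcccccacttCTTCCTCTTTCTTga
Rplp2, chr7:141447636-141447665, plus strand: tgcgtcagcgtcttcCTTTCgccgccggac
Rps6, chr4:86857353-86857382, minus strand: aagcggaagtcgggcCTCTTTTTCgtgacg
Rps18, chr17:33955651-33955680, minus strand: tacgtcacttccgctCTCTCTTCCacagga
Rpl14, chr9:120571502-120571531, plus strand: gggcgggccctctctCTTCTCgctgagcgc
Rack1, chr11:48800345-48800374, plus strand: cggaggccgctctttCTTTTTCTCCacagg

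Translation genes with such a start and those annotated with another were close. The 14 with it had a median fitted difference of 0.41 and the 34 without it 0.32, and annotated starts can miss the start used in liver. The 113 genes with a pyrimidine start outside the translation lists had a median of -0.0039. Rps6, the ribosomal protein phosphorylated by S6 kinase, had 49.8, 96.9 and 237 CPM in heavy pools and 21.2, 60.4 and 217 CPM in light pools, and its fitted difference was 0.77 ± 0.32 (adjusted p = 0.997), with 4 livers higher and keto 1 and S209A 1 below 0. Eef1a1, which brings tRNA to the ribosome, had 409.7, 712 and 1194 CPM in heavy pools, against 251, 508 and 693 CPM in light pools. It was higher in 5 livers and at -0.01 in keto 1, and the fit gave 0.61 ± 0.26 (adjusted p = 0.997). Tpt1, a TOP mRNA for a tumor protein, was higher in 6 livers at 0.69 ± 0.29, with 0.01 in chow 2. Eif4e itself had a mean of 16.4 counts and pair differences from -3.38 to 1.84.

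Of the 24 genes of the eIF4E, MNK and mTORC1 pathway, all measured, 8 had a fitted value above 0, where 50.9% of all genes did. Heavy was higher in all 6 livers for 1, where 1.93% of all genes were, namely Eif4ebp3, an inhibitor that binds eIF4E. It had 16.0, 82.6 and 188 CPM in heavy pools, against 6.61, 49.2 and 103 CPM in light pools, and the fit gave 0.95 ± 0.32 (adjusted p = 0.997). Its relative Eif4ebp1 was higher in 4 livers and below 0 in keto 1 and S209A 1. Livers disagreed widely for 2 kinases upstream of the S209 site. Mapk3, the ERK1 kinase, was 4.0 and -1.10 in keto 1 and keto 2, 0.77 in S209A 1, and -2.72, -2.55 and 0.10 in chow 1, chow 2 and chow 3. Mknk1, the MNK1 kinase that ERK activates, was 3.76 and -1.12 in keto 1 and keto 2, 1.39 in S209A 1, and -1.76, -2.06 and -0.26 in chow 1, chow 2 and chow 3. The signs of both followed each other in every liver except chow 3, and their fitted values were -0.44 ± 0.86 and -0.16 ± 0.76.

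Amino acid catabolism leaned to the heavy pool by small differences. All 51 listed genes were measured, and 44 had a fitted value above 0, where 50.9% of all genes did. Heavy was higher in all 6 livers for 7, where 1.93% of all genes were (Bhmt, Uroc1, Aass, Gnmt, Pcbd1, Bhmt2 and Ahcy). For 0 genes it was lower in all 6, where 1.47% were. The list's median was 0.24, and by liver it was 0.28 and 0.19 in keto 1 and keto 2, -0.10 in S209A 1, and 0.83, 0.50 and 0.21 in chow 1, chow 2 and chow 3. Bhmt, Gnmt and Ahcy all act in the methionine cycle. Oat, ornithine aminotransferase, was higher in 5 livers at 0.91 ± 0.30 and was -0.10 in S209A 1. Gpt, alanine aminotransferase, was higher in 5 at 0.66 ± 0.28, and Prodh, proline dehydrogenase, in 5 at 0.58 ± 0.24.

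In the urea cycle 7 of 8 genes had a fitted value above 0, where 50.9% of all genes did. None kept 1 sign in all 6, where 3.4% of all genes did. Cps1, its first enzyme, had 5902, 11535 and 17740 CPM in heavy pools and 3978, 6570 and 12830 CPM in light pools. It was higher in heavy in 5 livers and at -0.01 in S209A 1, and the fit gave 0.66 ± 0.29 (adjusted p = 0.997). Asl (0.62), Arg1 (0.56) and Ass1 (0.51) had the same pattern, with S209A 1 the 1 liver below 0 at -0.14, -0.44 and -0.13.

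Genes of the pericentral zone, next to the central vein, gave 3 of 19 measured genes higher in all 6 livers, against 1.93% of all genes. These were Cyp2a5, Slc1a2, a glutamate transporter, at 0.80 ± 0.23 (adjusted p = 0.924), and Glul, glutamine synthetase, at 0.65 ± 0.26 (adjusted p = 0.997). The pericentral medians were -0.26 and 0.02 in keto 1 and keto 2, -0.10 in S209A 1, and 1.37, 0.83 and 0.03 in chow 1, chow 2 and chow 3. Of 20 measured periportal genes 1 was higher and 1 lower in all 6 livers. A fitted value above 0 was found for 16 of those 20 and for 14 of the 19 pericentral genes, against 50.9% of all genes. Among 32 measured UGT, sulfotransferase and glutathione transferase genes, 4 were higher in all 6 (Sult1a1, Gstm6, Sult1d1 and Gsta3), against 1.93% of all genes. But 13 were lower in all of the 4 livers other than chow 1 and chow 2, where 9.14% of all genes were. The list's medians were -0.27 and -0.31 in keto 1 and keto 2, -0.50 in S209A 1, and 1.15, 0.34 and -0.32 in chow 1, chow 2 and chow 3. Gstp1, a glutathione transferase, had 38.9, 137 and 577 CPM in heavy pools, against 169, 271 and 1596 CPM in light pools. It was 1.62 in chow 1, near 0 at -0.02 in chow 2, and between -2.52 and -1.70 in the other 4 livers. Of 51 measured cytochrome P450 genes 2 were higher in all 6 and 0 lower, against 1.93% and 1.47% of all genes.

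Glucose and ketone body enzymes leaned to heavy mainly through chow 1 and chow 2. Of 21 measured genes of glycolysis and gluconeogenesis 19 had a fitted value above 0, against 50.9% of all genes. Heavy was higher in all 6 livers for 2 of them and lower in all 6 for 1, against 1.93% and 1.47% of all genes. The list's median was 0.44. Its medians were -0.21 and 0.24 in keto 1 and keto 2, -0.04 in S209A 1, and 1.18, 0.78 and 0.12 in chow 1, chow 2 and chow 3. Pcx, pyruvate carboxylase, was higher in all 6 livers, at 0.07, 0.09 and 0.10 in keto 1, keto 2 and S209A 1 and at 1.37, 1.22 and 0.51 in chow 1, chow 2 and chow 3. Where 1.93% of all genes were higher in all 6, 2 of 9 genes of ketogenesis and the carnitine shuttle were. They were Cpt1a, the gate of fatty acid entry into mitochondria, at 0.55 ± 0.27, and Slc25a20, the carnitine carrier, at 0.63 ± 0.35, both with an adjusted p of 0.997. Cpt1a was as small as 0.02 in S209A 1. Apoa4, an apolipoprotein of lipid-rich particles, was higher in all 6 at 0.78 ± 0.28. Of 16 apolipoproteins 14 had a fitted value above 0, where 50.9% of all genes did. Yet 6 of the 16 were lower in all of the 4 livers other than chow 1 and chow 2, where 9.14% of all genes were. The apolipoprotein medians were -0.42 and -0.18 in keto 1 and keto 2, -0.27 in S209A 1, and 1.43, 0.88 and -0.10 in chow 1, chow 2 and chow 3.

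Zinc finger proteins, mostly DNA-binding regulators, leaned to the light pool in chow 1 and chow 2. Of 107 measured members 49 were lower in heavy in both of those livers, where 31.2% of all genes were, and 18 were higher. The list's medians were 0.11 and 0.22 in keto 1 and keto 2, 0.33 in S209A 1, and -0.44, -0.20 and -0.01 in chow 1, chow 2 and chow 3. Splicing factors, with 56 genes, had medians of 0.21 and 0.43 in keto 1 and keto 2 and 0.25 and -0.07 in chow 1 and chow 2. Ddx17, an RNA helicase, was -1.17 and -2.60 in chow 1 and chow 2 and between -0.38 and 0.45 in the others.

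**Figure D4:**
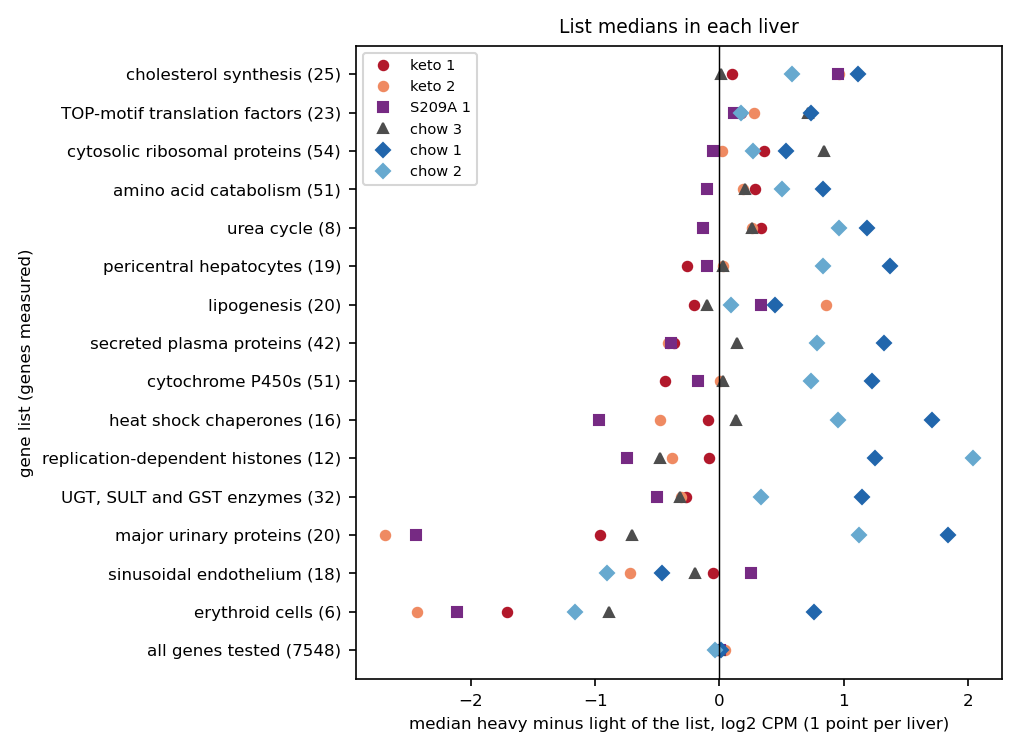
Median heavy minus light (log2 CPM) of each gene list in each liver, with the number of genes measured in brackets. Cholesterol synthesis and TOP-motif factors lie above 0 in all 6 livers, and major urinary proteins lie above 0 in chow 1 and chow 2 and below 0 in the other 4.

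Some of the most abundant liver mRNAs split 3 to 3, but such a split was not a trait of abundant mRNAs. Its share was 31% in the highest of the 4 equal bins of mean count, against 31.6% over all genes. Bhmt and Apoa4, with means of 5902 and 3097 counts, were higher in heavy in all 6 livers. The highest-count genes with a 3 to 3 split included Lars2, Apoa1, C3, Cyp2e1 and Ahsg. Apoa1, the main HDL protein, had 11330, 17515 and 30140 CPM in heavy pools and 7457, 15345 and 20600 CPM in light pools. It was -0.41 and -0.38 in keto 1 and keto 2, -0.15 in S209A 1, and 1.55, 0.91 and 0.22 in chow 1, chow 2 and chow 3. Cyp2e1, an ethanol-oxidizing P450, had the same signs, from -0.57 in keto 2 to 1.53 in chow 1, as had complement C3 (-0.33 in keto 2, 0.88 in chow 1) and Ahsg, a plasma glycoprotein (-0.42 in S209A 1, 1.40 in chow 1). Lars2, which encodes the mitochondrial leucyl-tRNA synthetase, had a mean of 47080 counts, where Alb had 15053. Whether the reads counted there all come from its mRNA was not tested, so its differences need not describe ribosome loading. They ran from -2.46 in keto 2 to 0.68 in S209A 1, and their signs did not follow the others.

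Secreted plasma proteins as a list, with 42 of 42 measured, had 0 genes with 1 sign in all 6 livers, against 3.4% of all genes. Heavy was higher in both chow 1 and chow 2 for 36 of the 42, where 31.1% of all genes were, and lower in all of the other 4 livers for 16, where 9.14% were. The list's medians were -0.36 and -0.42 in keto 1 and keto 2, -0.39 in S209A 1, and 1.32, 0.78 and 0.14 in chow 1, chow 2 and chow 3. Alb, serum albumin, was a mild case, at 9957, 16585 and 24670 CPM in heavy pools and 8911, 13135 and 24030 CPM in light pools, with 4 pairs higher. Heat shock chaperones had 15 of 16 genes higher in both chow 1 and chow 2, with medians of -0.10 and -0.48 in keto 1 and keto 2, -0.97 in S209A 1, and 0.13 in chow 3. Replication-dependent histones, most of whose mRNAs end without a poly(A) tail, had 10 of 12 measured genes of 62 listed higher in both, and medians below 0 in each of the other 4.

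Major urinary proteins, small pheromone carriers made in bulk by male liver, opposed most strongly. Over all genes 50.9% had a fitted value above 0, 31.1% were higher in both chow 1 and chow 2, and 9.14% were lower in the other 4. All 20 measured members of this list had a fitted value below 0, yet 18 were higher in heavy in both chow 1 and chow 2, and 16 were lower in all of the other 4 livers. Their medians were -0.96 and -2.69 in keto 1 and keto 2, -2.44 in S209A 1, and 1.84, 1.13 and -0.70 in chow 1, chow 2 and chow 3. The members are near-identical copies, so reads may be divided among them and they are not separate observations.

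Whether the pool contrast differs among the 3 header wordings was tested across all genes with an F test on 2 degrees of freedom, chosen after the correlations were seen. It called 194 of 7548 genes (2.57%), and 997 had an unadjusted p below 0.05. Of the 194, 143 were higher in heavy under the Bowtie2 header and lower under both others, and 16 ran the opposite way. Each wording covers 1 pair of livers, and the pair with the Bowtie2 header is also 2 of the 3 chow livers, so header and animal cannot be told apart. The 6 genes with the smallest p and at least 50 mean counts were Mup7, Hamp, Mup14, Csad, Mup2 and Apoe.

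Hamp encodes hepcidin, the iron hormone. It had 148, 1328 and 4786 CPM in heavy pools and 216, 371 and 3001 CPM in light pools. The fitted difference was 2.99 in the livers with the Bowtie2 header, -1.11 in those with HISAT2 and -0.78 in those with a read file (adjusted p = 1.17e-05). Apoe, the most counted gene, had 25100, 58165 and 123800 CPM in heavy pools, against 20600, 31610 and 97260 CPM in light pools, and the fits were 2.30, -0.38 and -0.20 in the same order (adjusted p = 7.29e-05). Csad, which makes taurine's precursor, gave 1.60, -1.72 and -1.76 (adjusted p = 3.82e-05). Mup7 gave 1.63, -4.24 and -3.20 (adjusted p = 7.30e-10).

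Without chow 1 and chow 2, 10 of the 56 genes called were major urinary proteins and 3 were hemoglobin genes, all lower in heavy. Of the 20 genes with 1 sign named above, 6 were among the 56, namely Eppk1 at 1.67 ± 0.25, Bhmt at 1.33 ± 0.21, Hmgcs1 at 1.23 ± 0.25, Cyp2a5 at 1.31 ± 0.27, Sult1a1 at 0.90 ± 0.21 and Slco1a1 at -2.36 ± 0.37. Because those 20 were chosen on all 6 livers, that overlap supports nothing. Genes seen there and named after their values were known include Fabp1, a fatty acid carrier, at -1.33 ± 0.18, Gpx1, glutathione peroxidase, at -0.91 ± 0.18, Egfr at -1.11 ± 0.23 and Cyp17a1, a steroid hydroxylase, at 2.44 ± 0.45. Cyp17a1 was also higher in heavy in all 6 livers, with 41.1 mean counts.

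Markers of endothelium, blood and, by little, stellate cells had negative medians, and those of Kupffer cells and cholangiocytes did not. Between livers, fewer cells of a type and less RNA per cell cannot be told apart in whole tissue, whereas both pools of a liver come from the same tissue. Of 18 measured markers of sinusoidal endothelium 4 had a fitted value above 0, where 50.9% of all genes did. Kdr, the VEGF receptor, was lower in heavy in all 6 livers at -0.48 ± 0.26, with 51.1, 68.1 and 114 CPM in heavy pools and 68.3, 97.0 and 152 CPM in light pools. The list's median was above 0 in S209A 1, at 0.26, and below 0 in the other 5 livers. Scaled without TMM, the endothelial list summed to between 493 and 1968 CPM in heavy libraries and between 922 and 2618 in light ones. Stab2, a scavenger receptor, had 101, 208 and 365 CPM in heavy pools and 240.4, 299.9 and 446 CPM in light pools, and was 0.10 in chow 3. Of 12 erythroid markers 6 were measured, and their median was -1.63. Hba-a1 was lower in all 6 livers, and the list was above 0 in chow 1 alone, at 0.76. Also without TMM, the erythroid list summed to between 45.6 and 227 CPM in heavy libraries and between 85.4 and 1049 in light ones. The globin copies may share reads. Kupffer cell markers had a median of 0.02 over 13 genes, stellate cell markers -0.12 over 11 and cholangiocyte markers 0.64 over 5, with 3 of the 5 above 0. The part of blood or endothelial RNA in the other results was not tested.

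Diet and genotype were tested as differences in the pool contrast. For keto minus chow edgeR called 0 of 7548 genes (0%), with 443 at an unadjusted p below 0.05, and DESeq2 called 12. The smallest p values with at least 50 mean counts were all major urinary proteins (Mup9, Mup18, Mup11, Mup15, Mup16 and Mup22). Leaving out chow 3 gave 147 genes, and chow is then represented by the 2 livers with the Bowtie2 header alone. For S209A minus chow, 3 genes passed (0.0397%), all lower. The single S209A animal has no spread of its own and was assumed to vary like the others, so the p-values compare 1 liver with the chow livers and not the genotypes. The genes were Mup15 at -6.11 (adjusted p = 0.0198), Saa1, an acute phase apolipoprotein, at -5.08 (adjusted p = 0.0198), and Mup16 at -4.74 (adjusted p = 0.0209). The count was 0 without chow 1, 0 without chow 2 and 139 without chow 3, and Mup15 and Mup16 are near copies. Saa1 had 26.7, 89.1 and 1123 CPM in heavy pools, against 2.99, 46.8 and 854 CPM in light pools. It was 2.50 and -0.81 in keto 1 and keto 2, -2.14 in S209A 1, and 2.82, 2.48 and 2.95 in chow 1, chow 2 and chow 3.

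Titles of chow 3 and S209A 1 say fed, and those of the other 4 livers say chow or keto. The pool contrast differed between these wordings for 0 genes (0%), with 216 at an unadjusted p below 0.05 and 0 by DESeq2. Within the 4 livers of the chow or keto wording 0 genes passed, and within the 2 of the fed wording 0 did. The fed wording covers the same pair of livers as the HISAT2 header, where 16 genes passed, so that call depends on how the other 4 livers are grouped. Other genes listed by name showed little agreement. Apob, the VLDL scaffold, was lower in 5 livers and higher in chow 1, at -0.22 ± 0.27. Gapdh was higher in 5, with 40.8 mean counts. Actb was higher in chow 1 and chow 2 and lower in the other 4, and Pck1 and Hamp were each higher in 2 livers. Fgb, Srebf1, Atf4 and Eif4e were each higher in 4, and Saa2, Mknk2, Rpl7, Odc1 and Cyp4a14 split 3 to 3.

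Gene length, which the comparison did not use, went with the contrast in opposite directions. Spearman's rho of heavy minus light with the length of the gene in the genome was 0.05 and 0.07 in keto 1 and keto 2, 0.21 in S209A 1, and -0.29, -0.28 and 0.04 in chow 1, chow 2 and chow 3, across 7548 genes that share each liver's libraries. In the shortest 1887 genes the median was -0.23 in S209A 1, 0.51 in chow 1 and 0.39 in chow 2. In the longest 1887 it was 0.30 in S209A 1, -0.53 in chow 1 and -0.42 in chow 2. The 146 genes higher in all 6 livers had a median length of 15.2 kb and the 111 lower ones 32.3 kb, against 26.5 kb over all genes. Gene length includes introns and is not the length of the mRNA.

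**Figure D5:**
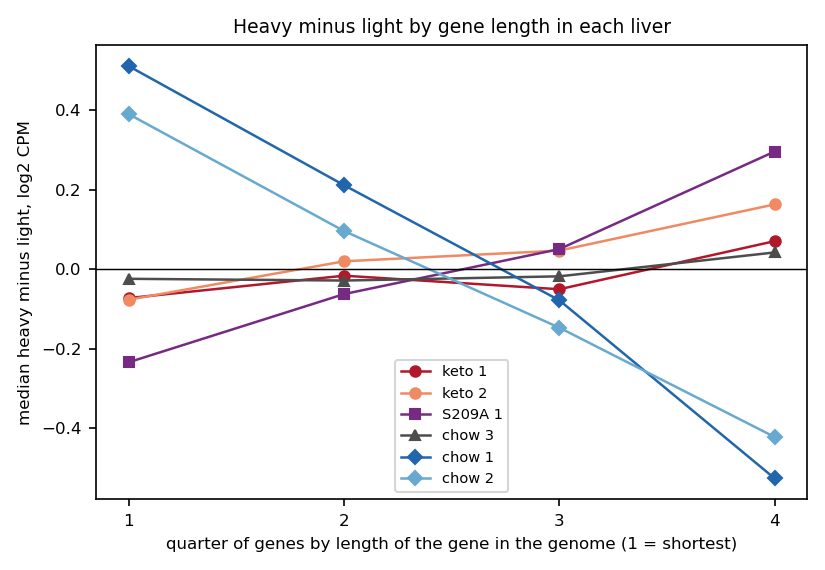
Median heavy minus light (log2 CPM) in 4 equal bins of genes ordered by gene length in the genome, 1 line per liver. S209A 1 runs from -0.23 in the shortest bin up to 0.30 in the longest, while chow 1 and chow 2 run from 0.51 and 0.39 down to -0.53 and -0.42.

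The share of all counts on nuclear protein-coding genes did not separate the pools. It was 18.2% ± 10.9 in heavy and 17.1% ± 16.7 in light libraries (SD, n = 6 each), and heavy was higher in 3 livers and lower in 3. An exact paired permutation test gave p = 0.781, two-sided, where the 64 arrangements allow 0.0313 at the lowest. In chow 1 and chow 2 heavy exceeded light, at 15.9% and 22.2% against 6.53% and 8.16%, while in S209A 1 and chow 3 it was lower, at 29.6% and 29.7% against 38.0% and 39.3%.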

How the data were processed

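Per the labels' protocols, the fraction pools of each liver entered a stranded total RNA kit for low input after ERCC spike-in, which is not used here. Each library has a table of raw counts by Entrez gene ID, taken as the authors deposited it. The submitters' processing notes name mm10, Trimmomatic, HISAT2 and StringTie, whereas per the file headers 4 tables came from Bowtie2, 4 from HISAT2 and 4 name no aligner. Versions, strand setting and the handling of reads with several alignments: not given in the sources used here. Overlapping genes and near copies (Mup, Cyp2a, Hba, Hbb, H2-Q, Gstp, ribosomal proteins) are therefore uncertain. Of 27179 IDs, 25275 matched the RefSeq table of GRCm38.p6.

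Genes on nuclear chromosomes coding for protein, with at least 10 counts in 6 libraries, were scaled by TMM on their own counts. edgeR 4.0.16 (R 4.3.3) fitted quasi-likelihood models with animal and pool, two-sided, Benjamini-Hochberg over 7548 genes, threshold 0.05. CPM was computed from the deposited counts. Errors beside fitted log2 values are standard errors. Animals are the replicates, and p-values measure the spread between them. The pools of an animal are paired by their labels, and deviations from the group mean correlated within chow animals at r = 0.305, 0.258 and 0.253 across genes and within keto animals at 0.0757. Over all 6 animals chow 2 (0.0508 with its own light pool, 0.13 with another) and keto 2 (0.184 and 0.217) were closer to another animal's light pool. Counts limit the precision, most in keto 2 light with 356666 protein-coding counts.

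Members, lists and header splits were chosen with earlier results of these data known. Genes were named by rule: 10 per direction with 1 sign in all pairs, a mean of at least 50 counts and the smallest p where too few passed; up to 4 per list by fitted size; the 6 most counted genes splitting 3 to 3; the 6 smallest p per contrast; and 23 fixed genes. Other list members with 1 sign in all pairs were named after their values were seen. Some genes that these rules name are not reported here. Lists got no test. DESeq2 1.42.0, limma 3.58.1, other scalings and filters, and each liver left out were tried. The planned look at protein length and hydropathy was not run, since no protein table was used here. The models were tested on simulated data. All sample columns were used.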

Additional observations from a re-analysis of the deposited data

Results flagged for a closer look

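Over 93 sets of 6 pair differences, chance alone would single out about 1 in 20, and 2 sets had a liver far from the other 5. Thrsp was 5.46 in keto 2, against a median of 1.48 over the other livers, with 0 counts in that light pool. Srebf1 was -1.26 in keto 1, against a median of 0.40.

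Set against the chow livers, the pool contrast of the single S209A animal passed the threshold for Mup15 (-6.11), Saa1 (-5.08) and Mup16 (-4.74), and for 0 genes without chow 1 or without chow 2. The contrast differed among the 3 header wordings for 194 genes. The adjusted p values by edgeR's F test were 7.30e-10 for Mup7, 1.17e-05 for Hamp, 1.17e-05 for Mup14, 3.82e-05 for Csad, 6.71e-05 for Mup2 and 7.29e-05 for Apoe.

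Outside the genes compared, the mitochondrial genome took up to 74.4% of a library's counts (keto 2 heavy) and as little as 12.2% (S209A 1 light). The most counted ID, which the RefSeq table does not name, took up to 59.1% (chow 1 heavy) and as little as 15.9% (keto 2 heavy).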

How the results depend on the processing

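With each alternative changing 1 choice, the count of genes called over 6 pairs was 0 with RLE factors, with library totals alone, with a mean of at least 50 counts, with all genes in the tables, within each title wording and with no replicate block. It was 12 with DESeq2, 10 with limma-voom, 17 with no low count filter, 2 with conditions weighted equally, 365, 16 and 9 within the Bowtie2, HISAT2 and read-file headers, 56 without chow 1 and chow 2, and 0 to 7 leaving out 1 liver, where 7 was without chow 1. The 257 genes with 1 sign became 110 with a mean of at least 50 counts, 444 to 544 with 1 liver left out, 1384 without chow 1 and chow 2 and 87 with a difference over 0.2 in every pair. Leaving livers out raises this count by itself, since random signs agree more often over fewer pairs. Library totals alone turned the split of 146 higher and 111 lower to 104 and 151, and all genes to 127 higher of 261. Keto minus chow gave 12 with DESeq2 and 0 to 147 leaving out 1 liver, with 147 without chow 3. S209A minus chow gave 14 with DESeq2, 0 with a mean of at least 50 counts and 0 to 139 leaving out 1 liver. The difference in protein-coding share ran from -1.54 to 3.18 percentage points leaving out 1 liver, with -0.619 without chow 1 and -1.54 without chow 2. The sign turned for Rpl14 (-0.0839 within the read-file header), Ybx1 (-0.0775 within the fed wording and -0.0775 within HISAT2), Cyp7b1 (1.34), Gstp1 (0.81) and Gstp2 (0.71) within Bowtie2, and Cyp4a31 (-0.82 within the read-file header). Of the other named-gene values 1001 stayed on their side of the threshold and 63 came to pass it. The causes were not tested. Low depth, most in keto 2 light, limits what single pairs show.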
